A study of Homo sapiens with 10 samples.

Results

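Pyruvate dehydrogenase, its 4 kinases and its phosphatases were followed as 10 genes in cardiomyocytes made from H1, a widely used established line of human embryonic stem cells. The genes were taken by symbol from a table of 78932 gene identifiers: PDK1, PDK2, PDK3 and PDK4 for the kinases, PDP1, PDP2 and PDPR for the phosphatases, and PDHA1, PDHB and DLAT for the enzyme. All 10 were found, and all 10 were among the 21033 genes with enough counts to be tested. Beating cells were given 50 nM of a CLIPPER GapmeR or of a control GapmeR on day 9 of differentiation, and their total RNA was sequenced 48 hours later, in 5 libraries of each kind. A GapmeR is a short synthetic antisense strand with a DNA centre, whose RNA partner is cleaved by RNase H. Libraries from cells given the CLIPPER GapmeR are called knockdown libraries after their labels, and the others control libraries. The labels give the control cells as wild type, and all cells share 1 line and 1 transfection reagent. Nothing in the labels says whether replicates came from separate differentiations, so p-values measure the spread between these libraries, which may be technical. No gene in the annotation used is named CLIPPER, so the targeted RNA was not analysed here.

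The pyruvate dehydrogenase complex sits in the mitochondrial matrix and turns pyruvate from glycolysis into acetyl-CoA, which commits carbohydrate carbon to oxidation. Its E1 component, made of alpha and beta subunits, decarboxylates pyruvate, and its E2 component passes the acetyl group to coenzyme A. Kinases switch the complex off by phosphorylating serines of E1 alpha, and phosphatases switch it on again. In heart muscle, which can burn fat or carbohydrate, this switch is a known point of fuel selection, and PDK4 is the kinase best known to rise with fasting and fatty acid use. These data hold transcript levels, not phosphorylation or enzyme activity.

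Library totals ran from 32879710 to 45052044 counts. Knockdown replicates 1 and 2 stood apart from the other 3: their scaling factors were 1.16 and 1.12, against 0.899 to 0.967 in the other knockdown and 0.943 to 1.04 in the control libraries, and their share of counts from the mitochondrial genome was 11.5% and 10.9%, against 16% to 17.5% in the other knockdown and 10% to 12.2% in the control libraries. The cells carried cardiomyocyte markers. All 12 listed markers were tested, 10 of them fell and none rose, and their summed level was 15607 to 25074 CPM (read counts scaled to a common library size) in knockdown and 40537 to 55615 CPM in control libraries. Summed stromal markers stood at 951 to 1113 CPM in knockdown and 1268 to 1388 CPM in control libraries (of 10 listed, 9 tested, 1 up and 6 down), and smooth muscle markers at 773 to 1246 CPM in knockdown and 1529 to 2813 CPM in control libraries (of 6, 5 down). Endothelial markers summed to 8.39 to 16.4 CPM in knockdown and 29.3 to 50.0 CPM in control libraries (3 of 6 tested, 2 down), pluripotency markers to 4.19 to 7.03 CPM in knockdown and 0.942 to 1.86 CPM in control libraries (4 of 6 tested, 3 up), and endoderm markers to 10.9 to 20 CPM in knockdown and 5.46 to 6.98 CPM in control libraries (2 of 6 tested, 1 up). No marker was at 0 over all libraries. The summed levels differed between the groups, but not every gene in a list did. The endoderm sum was mostly APOA1, with 10.6 to 19.4 CPM in knockdown and 4.95 to 6.54 CPM in control libraries. The endothelial sum was mostly KDR, with 7.15 to 13.8 CPM in knockdown and 26.0 to 46.3 CPM in control libraries. Of the pluripotency markers, POU5F1 and NANOG had too few counts to be tested. These genes were named after their values were seen. The part of the marker lists in the results that follow was not tested. In bulk RNA, fewer cells of a type and less RNA per cell cannot be told apart.

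Of the 10 genes, 9 passed at an adjusted p under 0.05 in edgeR's quasi-likelihood test, 5 higher and 4 lower in the knockdown. Over all tested genes the same test called 79.7%, with 40.1% higher and 39.6% lower. The counts of the 10 genes are near this background and say nothing particular about them, so they are described one by one. The split into higher and lower depends on the scaling: it was 8441 and 8332 genes here, and 9566 and 7277 with upper-quartile scaling. Rises and falls are relative to the other RNA of a library, and absolute amounts were not measured. The kinases PDK1, PDK2 and PDK3 and the phosphatase regulator PDPR fell. The kinase PDK4, both catalytic phosphatase subunits and the subunit genes PDHB and DLAT rose, and PDHA1 did not pass. In 7 of the 10 genes the groups did not overlap, against 67.5% of tested genes, with 3 higher (33.7% of tested genes) and 4 lower (33.8%) in the knockdown.

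**Figure D1:**
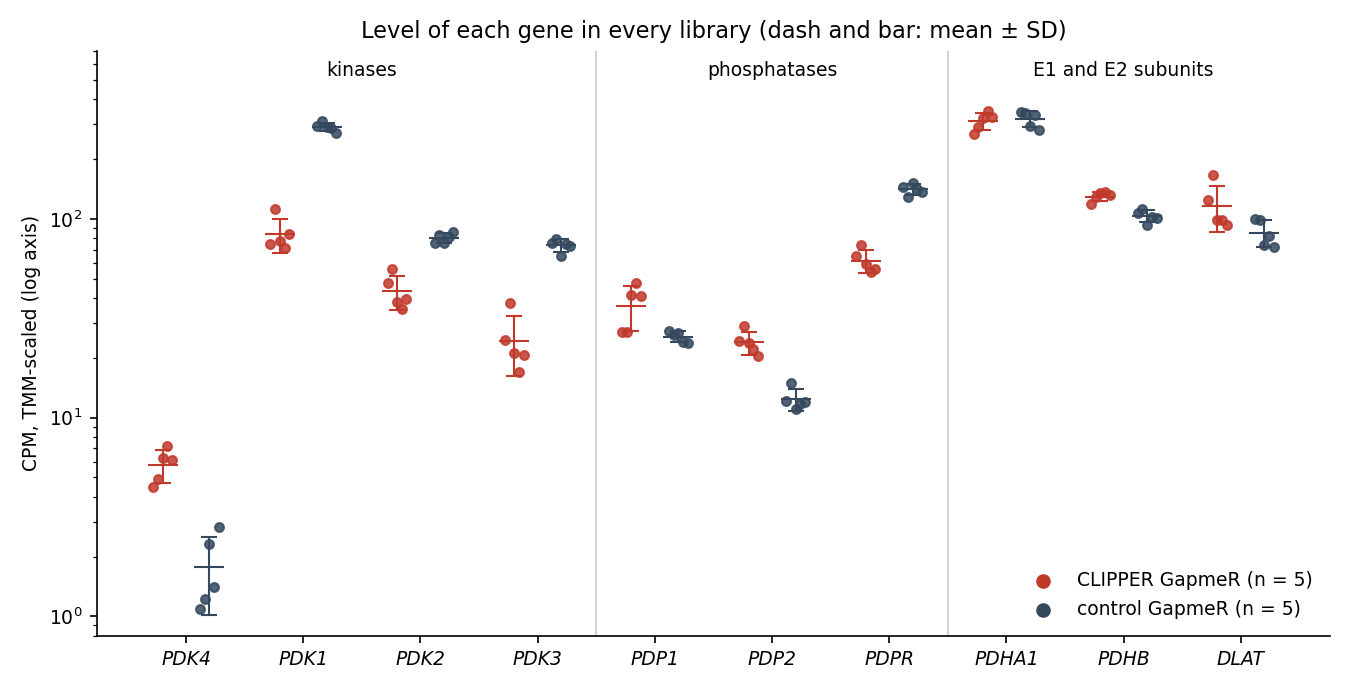
CPM of each gene in each of the 10 libraries on a log axis, with CLIPPER GapmeR libraries to the left of control GapmeR libraries, and mean ± SD (n = 5 each). PDK1, PDK2, PDK3 and PDPR lie lower and PDK4, PDP2 and PDHB higher in every knockdown library, while PDHA1, PDP1 and DLAT overlap.

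The stretches before the canonical start sites of the 4 kinase genes are shown because PDK1, PDK2 and PDK3 fell together while PDK4 rose. They come from RefSeq (GRCh38.p14), run 5′ to 3′ on the strand of the gene, and lie within the 250 bases before the start of the canonical transcript. Bases that belong to an exon of another annotated transcript of the same gene were left out, which leaves 250 bases for PDK4 (chr7:95596517-95596766, minus strand), 167 for PDK1 (chr2:172555840-172556006, plus strand), 184 for PDK2 (chr17:50095101-50095284, plus strand) and 208 for PDK3 (chrX:24465036-24465243, plus strand). Capitals mark matches on either strand to ACGTG (a form of the core of the HIF site), AGGTCA (the core of nuclear receptor sites), GTAAACA (a forkhead site), GGGCGG (a GC box) and CCAAT. Other forms of the HIF core were not searched. The stretches of PDK1 and PDK2 lie inside the annotated gene, past its first base (172555373 for PDK1 and 50094737 for PDK2). Which start site these cells used was not tested.
PDK4: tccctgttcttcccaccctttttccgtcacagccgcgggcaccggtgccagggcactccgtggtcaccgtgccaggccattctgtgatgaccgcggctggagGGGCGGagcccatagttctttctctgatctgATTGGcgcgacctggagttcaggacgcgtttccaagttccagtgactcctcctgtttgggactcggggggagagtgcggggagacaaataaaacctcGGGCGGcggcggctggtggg
PDK1: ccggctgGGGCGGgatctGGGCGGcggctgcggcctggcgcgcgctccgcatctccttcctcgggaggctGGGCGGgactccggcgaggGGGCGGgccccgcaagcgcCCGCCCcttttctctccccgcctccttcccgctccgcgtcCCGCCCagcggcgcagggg
PDK2: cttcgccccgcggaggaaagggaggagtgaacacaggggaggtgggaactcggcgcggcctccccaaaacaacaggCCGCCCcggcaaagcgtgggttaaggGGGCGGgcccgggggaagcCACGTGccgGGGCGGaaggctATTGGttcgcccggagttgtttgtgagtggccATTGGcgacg
PDK3: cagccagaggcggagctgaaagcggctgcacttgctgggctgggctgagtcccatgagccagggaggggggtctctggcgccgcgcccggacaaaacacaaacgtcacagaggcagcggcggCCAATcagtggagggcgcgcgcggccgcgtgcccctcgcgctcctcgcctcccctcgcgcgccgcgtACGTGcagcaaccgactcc
The GC box was matched 6 times before PDK1, 3 times before PDK2, 2 times before PDK4 and 0 times before PDK3, and it is in 29.0% to 42.6% of the same windows of all 35116 RefSeq promoters. PDK2 had 2 matches to ACGTG, which are the overlapping strands of 1 palindrome, and PDK3 had 1, against 11.7% to 18.5% of promoters with any. CCAAT was matched 2 times before PDK2 and 1 time each before PDK4 and PDK3, against 21.4% to 32.0% of promoters. None of the 4 stretches held AGGTCA or GTAAACA, which are in 7.95% to 12.1% and 1.97% to 2.98% of promoters. The falling kinases and PDK4 are not set apart by any 1 of these motifs, and a match is a description of letters only.

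PDK1 (ENSG00000152256, chromosome 2, 172555373 to 172608669, plus strand) encodes the kinase that is a known target of hypoxia-inducible factor. Its level in knockdown replicates 1 to 5 was 74.3, 112, 77.6, 71.0 and 84.0 CPM, against 293, 311, 291, 285 and 269.6 CPM in control replicates 1 to 5. The highest knockdown library, replicate 2, was still far below the lowest control. The mean was 83.7 ± 16.3 CPM in knockdown and 289.8 ± 14.9 CPM in control libraries (SD, n = 5 each), a log2 fold change of -1.79 ± 0.125 (SE, edgeR adjusted p = 1.4e-07). That is 3.46-fold lower, and it was the smallest p among the 10 genes, at rank 871 of all tested genes.

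PDK3 (ENSG00000067992, chromosome X, 24465244 to 24550466, plus strand), a kinase described mainly in testis, kidney and brain, fell as well. Knockdown libraries 1 to 5 held 24.6, 37.8, 21.2, 16.9 and 20.6 CPM, against 75.8, 79.4, 65.2, 74.9 and 72.9 CPM in the control libraries. Here too knockdown replicate 2 was the highest of its group, and the groups did not overlap. Its log2 fold change was -1.60 ± 0.182 (SE, edgeR adjusted p = 5.2e-06), or 3.04-fold lower.

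PDK2 (ENSG00000005882, chromosome 17, 50094737 to 50112152, plus strand), the most widely expressed kinase of the family, fell less. It stood at 47.6, 55.7, 38.2, 35.2 and 39.4 CPM in knockdown replicates 1 to 5, against 75.6, 82.6, 75.1, 81.3 and 85.6 CPM in control replicates. Knockdown replicates 1 and 2 were the 2 highest of their group and stayed below all controls. The log2 fold change was -0.89 ± 0.121 (SE, edgeR adjusted p = 2.3e-05), or 1.85-fold lower. Its last 2113 bases overlap SAMD14 on the other strand, which had 1359 counts over the 10 libraries against 24043 for PDK2, and since the strand setting of the counting is not given in the sources used here, reads in the overlap cannot be told apart.

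PDK4 (ENSG00000004799, chromosome 7, 95583499 to 95596516, minus strand) was the kinase that rose. Knockdown libraries 1 to 5 held 4.47, 4.93, 6.24, 7.18 and 6.11 CPM, against 1.09, 1.23, 2.30, 1.40 and 2.82 CPM in control libraries. All knockdown libraries were above all controls, but the control libraries differed more among themselves (coefficient of variation 42.5%) than the knockdown libraries did (18.8%). The log2 fold change was 1.71 ± 0.258 (SE, edgeR adjusted p = 5.6e-05), or 3.27-fold higher. It rests on fewer counts than that of any other gene in the group, 1094 in all knockdown and 336 in all control libraries. The antisense gene PDK4-AS1 covers all 13018 bases of PDK4 and had 111 counts over the 10 libraries, so a part of the PDK4 counts could belong to it.

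The rise of PDK4 was small in reads beside the fall of the other kinases. Counts of the 4 kinases together came to 130.3 to 210.0 CPM in knockdown and 431 to 474 CPM in control libraries, and PDK4 was 3.85% of that sum in knockdown and 0.401% in control libraries on average. Setting kinases beside each other needs their length, and the length chosen changes the order. Per kb of merged exons, PDK1 made up 34.8% ± 2.18 of the kinase sum in knockdown and 50.4% ± 2.08 in control libraries (SD, n = 5 each). PDK2 then held 48.7% ± 3.10 in knockdown and 37.7% ± 1.77 in control, PDK3 8.40% ± 1.26 in knockdown and 10.9% ± 0.558 in control, and PDK4 8.16% ± 2.53 in knockdown and 1.01% ± 0.440 in control. PDK1 and PDK2 thus changed places as the leading kinase between the groups on that scale, and PDK3 and PDK4 in the knockdown did not differ beyond their spread. Per kb of the longest transcript there was no such switch. PDK2 then led PDK1 in knockdown (57.5% against 26.7%) and in control libraries (47.0% against 40.7%). Per kb of the canonical transcript, which for PDK3 is 1.74 kb against 17.5 kb of merged exons, PDK3 led with 39.9% in knockdown and 48.5% in control libraries. PDK2 followed with 37.7% in knockdown and 27.3% in control, PDK1 with 17.5% in knockdown and 23.6% in control, and PDK4 was last with 4.97% in knockdown and 0.569% in control. On that scale PDK3 and PDK2 in the knockdown did not differ beyond their spread (SD 3.73 and 2.15). Under each of these lengths the PDK4 share was higher in all 5 knockdown libraries than in any control. The summed kinase level was 16.2 ± 2.79 CPM per kb in knockdown and 38.8 ± 1.25 CPM per kb in control libraries with merged exons (ratio of means 0.418), and 34.3 ± 7.90 CPM per kb in knockdown and 87.2 ± 4.08 CPM per kb in control libraries with canonical transcripts (0.394). No test was made on sums or shares over chosen genes.

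**Figure D2:**
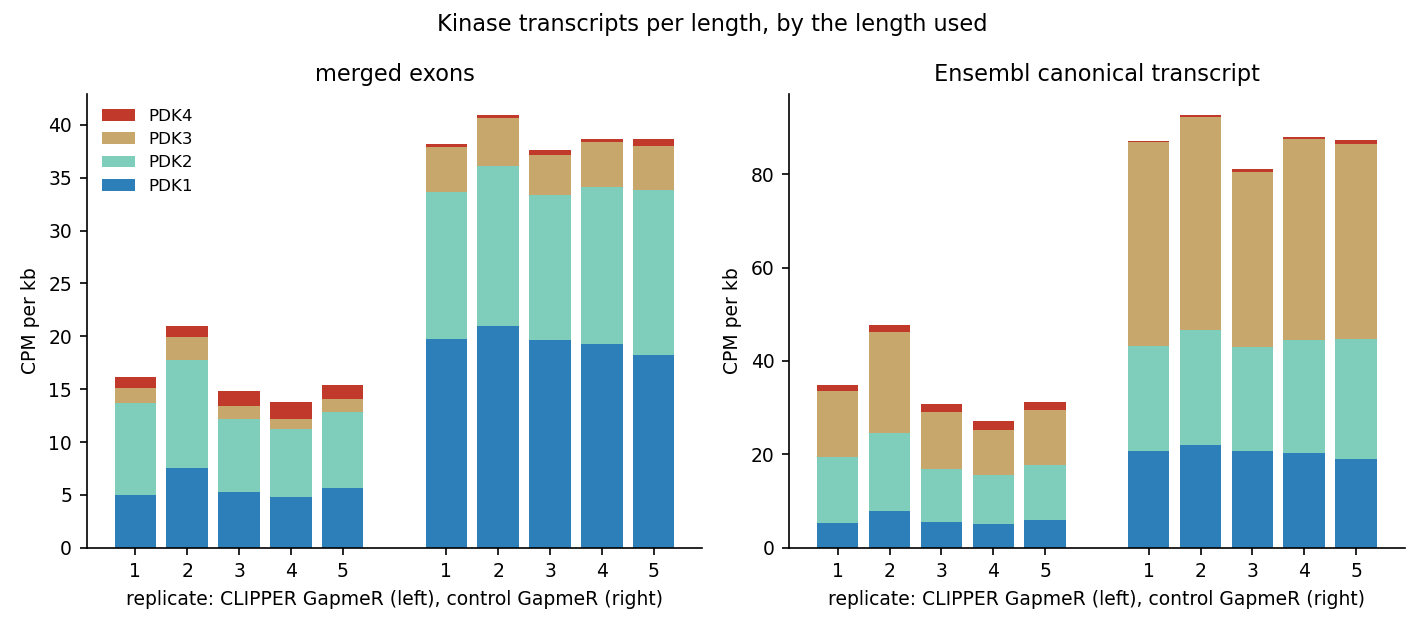
Level of each kinase in CPM per kb, stacked, for replicates 1 to 5 of CLIPPER GapmeR (left bars) and control GapmeR libraries (right bars), using merged exons or the canonical transcript as the length. With merged exons the stacks reach 13.8 to 21.0 in knockdown and 37.6 to 40.9 in control libraries, and the largest part depends on the length used.

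Of the phosphatase genes, PDP1 and PDP2 rose and PDPR fell. PDP2 (ENSG00000172840, chromosome 16, 66878589 to 66895754, plus strand), a catalytic subunit that, unlike PDP1, is not stimulated by calcium, stood at 24.2, 28.9, 23.7, 22.2 and 20.5 CPM in knockdown replicates 1 to 5, against 12.1, 15, 11, 11.7 and 12 CPM in control replicates. The groups did not overlap, and replicate 2 was the highest of both groups. PDP2 had a log2 fold change of 0.95 ± 0.115 (SE, edgeR adjusted p = 8.8e-06), or 1.93-fold higher.

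PDP1 (ENSG00000164951, chromosome 8, 93857807 to 93926068, plus strand), the calcium-stimulated catalytic subunit of muscle, rose in some knockdown libraries and not in others. Knockdown replicates 1 to 5 held 26.9, 26.8, 41.4, 47.3 and 40.7 CPM, against 27.3, 25.9, 26.7, 24.1 and 23.7 CPM in control replicates. Knockdown replicates 1 and 2 lay within the control range and the other 3 above it. The log2 fold change was 0.52 ± 0.155 (SE, edgeR adjusted p = 0.0082), and 0.74 with knockdown replicates 1 and 2 both left out (chosen after seeing the data).

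PDPR (ENSG00000090857, chromosome 16, 70114332 to 70162537, plus strand) encodes the regulatory subunit, which in biochemical work on bovine enzyme lowers the sensitivity of the catalytic subunit to magnesium. It was at 65.3, 73.4, 58.9, 53.9 and 55.7 CPM in knockdown replicates 1 to 5, against 145, 128, 151, 141 and 137 CPM in control replicates. Every knockdown library was below every control. PDPR had a log2 fold change of -1.19 ± 0.0988 (SE, edgeR adjusted p = 4.4e-07), or 2.28-fold lower. A duplicated copy, PDPR2P, had 63 counts over the 10 libraries against 39033 for PDPR, so the value is uncertain as far as reads were split or dropped between the copies.

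Per kb of merged exons, PDPR was 40.4% ± 6.38 of the phosphatase sum in knockdown and 70.5% ± 1.94 in control libraries (SD, n = 5 each). PDP1 held 41.1% ± 8.96 in knockdown and 22.2% ± 0.995 in control, and PDP2 18.5% ± 2.67 in knockdown and 7.36% ± 1.16 in control. In the knockdown PDP1 and PDPR did not differ beyond their spread, while in the control libraries PDPR led, then PDP1, then PDP2. The phosphatase sum, PDPR included, was 15.8 ± 0.85 CPM per kb in knockdown and 20.6 ± 0.924 CPM per kb in control libraries (ratio of means 0.767). PDPR is left out of the next ratio, which does not stand for all phosphatase transcripts. The summed kinases were 1.24 to 2.52 times the sum of PDP1 and PDP2 in knockdown libraries. In control libraries they were 6.01 to 6.79 times that sum, so these ranges did not overlap. With canonical transcripts the ratio was 1.89 to 4.53 in knockdown and 10.2 to 11.9 in control libraries. It is a ratio of transcripts and carries no test.

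The subunit genes of the enzyme moved little. PDHA1 (ENSG00000131828, chromosome X, 19343893 to 19361718, plus strand), the E1 alpha subunit that the kinases phosphorylate, was at 267 to 349 CPM in knockdown and 280.0 to 344 CPM in control libraries. Its log2 fold change was -0.04 ± 0.104 (SE, edgeR adjusted p = 0.76), with a 95% interval from -0.24 to 0.17 that leaves room for a small change either way. Its direction flipped with upper-quartile scaling (0.17), a filter of 1 CPM (0.02), knockdown replicate 1 left out (0.02) and knockdown replicates 1 and 2 left out (0.05), and none of these passed. Its processed copy PDHA1P1 had 11 counts and its testis-expressed paralog PDHA2 had 0, against 120582 for PDHA1.

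PDHB (ENSG00000168291, chromosome 3, 58427630 to 58433857, minus strand), the E1 beta subunit, held 118, 128, 134, 136 and 131 CPM in knockdown replicates 1 to 5, against 107, 112, 93.1, 102 and 101 CPM in control replicates. The groups did not overlap, though the gap was small. The rise was 1.26-fold, a log2 fold change of 0.33 ± 0.0794 (SE, edgeR adjusted p = 0.0019).

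DLAT (ENSG00000150768, chromosome 11, 112025408 to 112064404, plus strand), the E2 acetyltransferase, was at 125, 166, 98.1, 98.1 and 92.8 CPM in knockdown replicates 1 to 5, against 99.5, 99.1, 73.4, 81.7 and 72.4 CPM in control replicates. Knockdown replicates 1 and 2 were the only libraries above 100 CPM, and the other 3 overlapped the controls. The log2 fold change of 0.45 ± 0.168 (SE) passed narrowly (edgeR adjusted p = 0.027). Without knockdown replicate 1 or 2 or control replicate 3, 4 or 5 it lay between 0.27 and 0.43 and did not pass (adjusted p = 0.051 to 0.086), and without knockdown replicates 1 and 2 together it was 0.17 (adjusted p = 0.17).

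The other subunits, PDHX, which anchors E3 to the core, and DLD, the E3 dehydrogenase shared with sister complexes, differed little between the groups. PDHX stood at 88.1 ± 11.3 CPM in knockdown and 106 ± 10.7 CPM in control libraries (SD, n = 5 each), with overlap. Its log2 fold change of -0.27 (edgeR adjusted p = 0.029) lost its call with upper-quartile scaling (-0.08), with a filter of 1 CPM (-0.22) and without any 1 of knockdown replicates 1, 3, 4 and 5 or control replicate 1 (-0.26 to -0.24). DLD was at 166 ± 12.9 CPM in knockdown and 179 ± 8.87 CPM in control libraries and did not pass (log2 fold change -0.11, adjusted p = 0.24), with a turn to 0.09 under upper-quartile scaling and a call at -0.19 without knockdown replicates 1 and 2. DLD overlaps LAMB1 over 7932 bases, so its counts are uncertain.

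The knockdown libraries were not alike in these genes. Relative to the control mean, on the log2 scale, PDK3 ranged from -2.12 in knockdown replicate 4 to -0.96 in replicate 2, PDK1 from -2.03 to -1.38, PDK2 from -1.18 to -0.52 and PDPR from -1.38 to -0.93, each with replicate 4 lowest and replicate 2 highest. PDP1 ranged from 0.07 in replicate 2 to 0.89 in replicate 4, and PDK4 from 1.41 in replicate 1 to 2.08 in replicate 4. In these 6 genes replicate 4 was thus farthest from the controls, and replicate 1 or 2 nearest. DLAT (0.14 to 0.98) and PDP2 (0.74 to 1.23) ran the other way, with replicate 2 farthest and replicate 5 nearest. With replicates 1 and 2 both left out, a choice made after seeing the data, the log2 fold changes were -1.91 for PDK1, -1.92 for PDK3, -1.10 for PDK2, 1.88 for PDK4, -1.33 for PDPR, 0.83 for PDP2 and 0.37 for PDHB, and all passed.

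**Figure D3:**
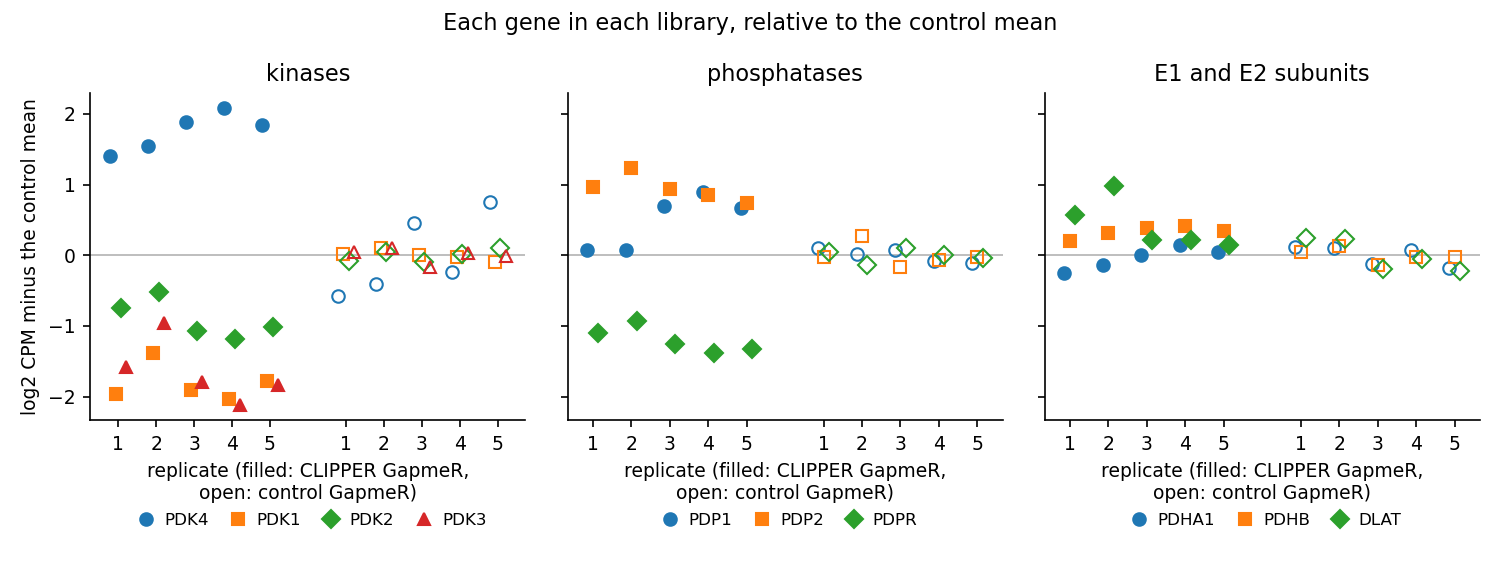
Log2 CPM minus the control mean for each gene in replicates 1 to 5 of CLIPPER GapmeR (filled) and control GapmeR libraries (open), by role. PDK1, PDK2, PDK3 and PDPR are nearest to the controls in knockdown replicate 2, and PDP1 is at the control level in knockdown replicates 1 and 2 (0.08 and 0.07).

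Fold changes in this comparison followed gene span, the length from start to end of the gene with introns. The median log2 fold change of tested coding genes was 0.77 for spans up to 10 kb (2796 genes), 0.27 for 10 to 30 kb (4068 genes) and -0.48 for 30 to 100 kb (4783 genes), the 3 classes that hold the 10 genes. It was -1.30 for 100 to 300 kb (2434 genes) and -2.09 over 300 kb (696 genes). PDK1 (53.3 kb), PDK3 (85.2 kb) and PDPR (48.2 kb) had lower values than the median of their class. PDK2 (17.4 kb) fell in a class whose median was above 0. PDP1 (68.3 kb) and DLAT (39.0 kb) rose in a class whose median was -0.48. PDK4 (13.0 kb) and PDP2 (17.2 kb) were higher than their class median of 0.27, and PDHA1 (17.8 kb) and PDHB (6.23 kb) lower than theirs of 0.27 and 0.77. The part of gene span in these values was not tested.

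**Figure D4:**
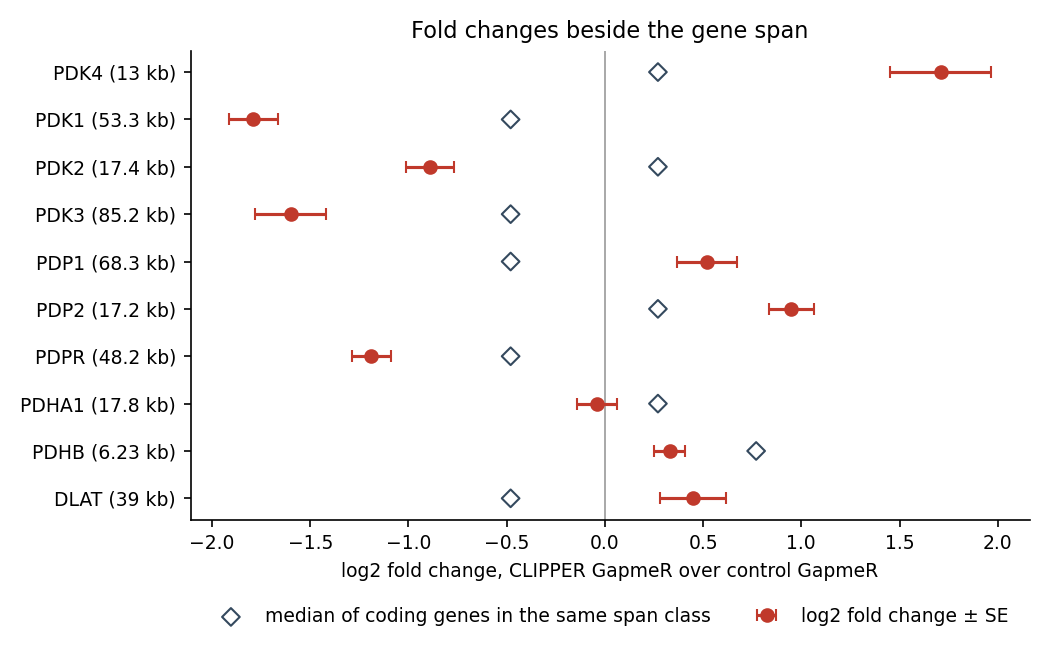
Log2 fold change ± SE of each gene, CLIPPER GapmeR over control GapmeR, with its span in kb, beside the median of tested coding genes in the same span class (open diamonds). Of the genes that passed, PDK2, PDP1 and DLAT lie on the other side of 0 from their class median.

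Genes around the complex moved both ways, as counted over lists of related genes, and the shares of all tested genes called higher and lower, 40.1% and 39.6%, stand beside them. Among 16 genes of pyruvate and lactate handling 6 rose and 7 fell, with a median log2 fold change of -0.13 against 0.01 over all tested genes. LDHB, the lactate dehydrogenase subunit of heart, rose 2.13-fold to 1187 ± 154 CPM in knockdown, against 558 ± 30.5 CPM in control libraries (SD, n = 5 each). GPT, an alanine transaminase, rose 1.59-fold, but a long non-coding gene with 974 counts overlaps its 1410 counts. The malic enzymes ME3 and ME1, which make pyruvate from malate, fell 3.97-fold and 4.23-fold, and both lie in the class of 100 to 300 kb, as does LDHB, which rose where 6.78% of tested coding genes were higher. All 4 had an edgeR adjusted p of at most 0.00029.

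Of 13 tested genes (14 listed) that supply lipoate and thiamine, cofactors of the complex, 5 rose and 5 fell, with a median of 0.12. IBA57 and ISCA1, of iron-sulfur cluster assembly that lipoate synthesis needs, rose 1.97-fold and 1.57-fold. MECR, of mitochondrial fatty acid synthesis, fell 1.40-fold. In the sister complexes for other 2-oxoacids 2 of 10 genes rose and 6 fell, with a median of -0.73. DBT and DLST, the E2 components of the branched-chain and the 2-oxoglutarate complex, rose 1.45-fold and 1.37-fold, beside the 1.36-fold of DLAT, the E2 component here. The groups overlapped for DLAT, and its rise lost its call with knockdown replicates 1 and 2 left out. DBT and DLST kept their calls there. DHTKD1, an E1 of lysine breakdown, fell 2.13-fold and BCKDHB, the E1 beta subunit for branched-chain acids, 3.24-fold. PDHB, its counterpart in this complex, rose 1.26-fold. The 2 genes differ in span. BCKDHB has 239.6 kb, in a class where 82.7% of tested coding genes were lower. PDHB has 6.23 kb, in a class where 66.5% were higher. The part of gene span in this contrast was not tested.

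Transcription factors and coregulators known to act on kinase genes, with the mitochondrial deacetylase SIRT3, were mostly lower: of 16, 14 fell and 1 rose, with a median of -0.91. This list is long in span: 8 of its genes are in the class of 100 to 300 kb and 1 is over 300 kb, and all 9 fell, but in these classes 82.7% and 93.4% of tested coding genes were lower, with medians of -1.30 and -2.09. The count of these 9 is near the background of genes of that span. Of its 4 genes of 30 to 100 kb, 0 rose and 3 fell, where 57.0% of tested coding genes were lower. Its 2 genes of 10 to 30 kb both fell, where 29.1% were lower. Its 1 gene up to 10 kb rose, where 66.5% were higher. The part of gene span in the counts of this list was not tested. FOXO3, a forkhead factor known to act on the PDK4 promoter, fell to 24 ± 4.73 CPM in knockdown, against 89.1 ± 6.05 CPM in control libraries (SD, n = 5 each), or 3.70-fold lower (edgeR adjusted p = 9.8e-08). RXRA, the partner of PPAR receptors, fell to 25.9 ± 5.06 CPM in knockdown, against 77.5 ± 10.6 CPM in control libraries, or 2.99-fold lower (edgeR adjusted p = 8.5e-07). MYC rose 6.30-fold (edgeR adjusted p = 3.3e-05), with 8.51 to 36.8 CPM in knockdown and 2.54 to 4.42 CPM in control libraries, and knockdown replicate 2 was the lowest of its group. ARNT, the partner of HIF factors, did not pass at 0.15 (named after its value was seen), and it passed in the 3 settings that called 2 rises here.

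PPAR-responsive genes of fat use, among which PDK4 is usually counted, had 2 rises and 9 falls in 15 tested genes of 16 listed, with a median of -0.40. Of its 8 genes of 30 to 100 kb, 2 rose and 6 fell, where 23.2% of tested coding genes were higher and 57.0% lower. Of its 4 genes up to 10 kb, 0 rose and 1 fell, where 66.5% were higher and 13.6% lower. The other falls were 1 at 10 to 30 kb and 1 over 300 kb. PLIN2, the lipid droplet coat protein, rose 5.24-fold. MLYCD, which breaks down malonyl-CoA, fell 5.58-fold, but overlaps make its counts uncertain. It overlaps OSGIN1 and a long non-coding gene of the same strand, which had 5428 counts against 5373 for MLYCD over all libraries. The carnitine carrier SLC25A20 fell by 0.97 on the log2 scale. HIF-responsive genes, among which PDK1 is usually counted, had 9 rises and 6 falls in 15 tested genes of 16 listed, with a median of 0.45. All 4 of its genes up to 10 kb rose, and of its 5 genes of 30 to 100 kb, 1 rose and 4 fell. The rest were 2 up and 1 down at 10 to 30 kb, 1 up and 1 down at 100 to 300 kb, and 1 up over 300 kb. The part of gene span in the counts of both lists was not tested. The demethylase gene KDM3A rose 1.94-fold and ANKRD37 3.17-fold, the last with overlap to UFSP2. PFKFB4, a regulator of glycolysis, fell 2.66-fold, with overlap to UCN2 on the same strand. P4HA1, a collagen prolyl hydroxylase, fell 1.63-fold. These lists were chosen with earlier results of the data known, so their counts describe and do not test, and neither list moved as PDK4 or PDK1 did in every member.

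**Figure D5:**
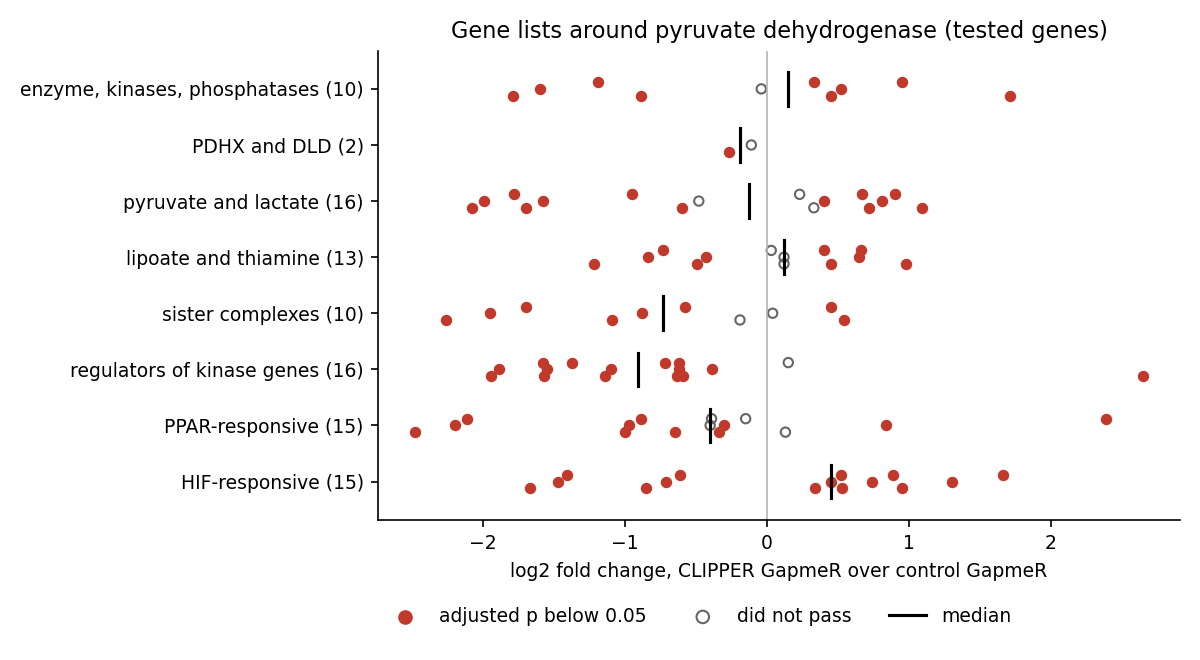
Log2 fold change of every tested gene in the lists around pyruvate dehydrogenase, CLIPPER GapmeR over control GapmeR, with the number tested in brackets, filled where the adjusted p was below 0.05, and the median as a bar. Medians run from -0.91 for regulators of kinase genes to 0.45 for HIF-responsive genes.

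The genes whose profile over the 10 libraries was nearest to PDK4, by the root mean square difference of log2 CPM after centring each gene on its control mean, were KCNF1, YPEL3 and BCL2L11, at 0.144, 0.233 and 0.252, against a median of 1.48 over 13176 coding genes. KCNF1, a potassium channel subunit, rose 3.51-fold, YPEL3 3.05-fold and BCL2L11, which encodes the death regulator BIM, 3.38-fold, and in all 3 control replicates 3 and 5 were the highest controls, as in PDK4. BCL2L11 lies within MIR4435-2HG, so its counts are uncertain. Nearest to PDK1 were LRRFIP2, PARVB and ITFG1, at 0.0583, 0.0590 and 0.0814, against a median of 1.14. They fell 3.58-fold, 3.47-fold and 3.66-fold, and in each knockdown replicate 2 was the highest of its group, as in PDK1. Because genes were picked by their profile over these same libraries, such likeness in fold change and library order follows from the choice. This holds for the genes nearest to PDK4 as well. PARVB overlaps SAMM50 and ITFG1 overlaps PHKB.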

How the data were processed

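RNA was measured in 10 libraries, 5 knockdown and 5 control, grouped by their titles. The table the authors deposited gives unnormalized read counts by gene, made by trimming with Trim Galore 0.65, alignment with STAR 2.7.0 and counting with HTSeq, per the submitters' processing notes. The design text gives GRCh38 and GENCODE release 38, and a scaling to CPM and gene length that this table does not carry. The libraries were made with a stranded kit, per the labels, and the strand setting of the counting is not given in the sources used here. Names, positions and lengths came from GENCODE release 44 by identifier (61481 of 78932 matched, the others kept unnamed). With 17451 identifiers unmatched, the release used for the counts is uncertain, and overlaps with the unnamed genes could not be seen.

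edgeR 4.0.16 in R 4.3.3 was used for scaling (TMM), for the low-count filter (filterByExpr) and for the quasi-likelihood test of knockdown over control, with robust estimation, and p-values were adjusted by Benjamini and Hochberg's method over 21033 genes, with 0.05 as the threshold. Standard errors are the log2 fold change over the square root of F, and 95% intervals are normal ones from these errors. The procedure was tested on simulated data. Log2 CPM values used a prior count of 2. All pairs of libraries within a group differed by more than sampling noise (chi-square per degree of freedom at least 4.13). Alternatives were DESeq2 1.42.0, its size factors, upper-quartile factors, voom of limma 3.58.1, other filters, no robust dispersion, no mitochondrial genome genes, a replicate block and each library left out.

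Members and lists were chosen with earlier results of these data known. Named genes were the 10 members, PDHX and DLD, up to 2 rising and 2 falling genes with the smallest p in each of 6 lists, and the 3 nearest profiles to PDK4 and to PDK1; some genes this rule names are not reported here. Totals of 32879710 to 45052044 counts limit precision for PDK4 above all, which has 1430 counts over all libraries. Figures were drawn with matplotlib 3.10.9.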

Additional observations from a re-analysis of the deposited data

Results flagged for a closer look

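PDP2 in control replicate 2, at 15 CPM against 11 to 12.1 CPM in the other control libraries, stood apart from its group: its gap to the nearest library was 0.734 of the whole range, above the 0.71 that Dixon's test allows for 5 libraries. It was the 1 such case among 20 groups of libraries examined, and chance gives about 1 in 20. Without that library the log2 fold change of PDP2 was 1.0 and kept its call.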

How the results depend on the processing

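Each gene was refitted under 20 alternatives, of which leaving out knockdown replicates 1 and 2 together was chosen after seeing the data, as was the canonical transcript as a length. PDK1 (-1.93 to -1.60), PDK2 (-1.10 to -0.70), PDK3 (-1.92 to -1.42), PDK4 (1.55 to 1.92), PDP1 (0.42 to 0.74), PDP2 (0.83 to 1.14), PDPR (-1.33 to -1.0) and PDHB (0.28 to 0.53) kept direction and call in all 20. Upper-quartile scaling shifted the median of all genes by 0.20. DLAT lost its call without knockdown replicates 1 and 2 (0.17), and over single libraries left out it ran from 0.27 to 0.52. PDHA1 turned sign with upper-quartile scaling (0.17), a 1 CPM filter (0.02) and without knockdown replicates 1 and 2 (0.05), and ran from -0.10 to 0.02 over single libraries, with no call. DLD turned to 0.09 with upper-quartile scaling. Of PDHX and DLD, 0 were called lower with upper-quartile scaling or a 1 CPM filter, 2 without knockdown replicates 1 and 2, and 0 to 1 over single libraries. Regulators called higher were 2 with upper-quartile scaling, DESeq2 or the 1 CPM filter. The cause of these changes was not tested.

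Shares by the longest transcript were 26.7% for PDK1, 57.5% for PDK2 and 20.5% for PDHB in knockdown libraries. In control libraries they were 40.7% for PDK1, 47.0% for PDK2, 24.4% for PDP1, 68.2% for PDPR, 69.4% for PDHA1, 17.5% for PDHB and 13.0% for DLAT. With canonical transcripts they were 17.5% for PDK1, 37.7% for PDK2, 39.9% for PDK3, 4.97% for PDK4, 44.3% for PDHA1 and 41.3% for PDHB in knockdown libraries. The canonical shares in control libraries were 23.6% for PDK1, 27.3% for PDK2, 48.5% for PDK3, 25.0% for PDP1, 67.7% for PDPR, 51.2% for PDHA1 and 37.0% for PDHB. The order of kinases within a library therefore rests on the length chosen, while changes of 1 gene between groups do not.

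With the replicate number as a block, 16425 genes were called against 16773, and 5 members rose and 4 fell as without it. Same-numbered libraries correlated by -0.17 to 0.22 in their deviations, and not every library correlated best with its own number. With 5 libraries per group these values cannot settle whether the numbers pair the samples, and the main test treated the libraries as unpaired.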
